A study of Mus musculus with 27 samples.

Results

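Collagens are the proteins of the extracellular matrix whose chains carry repeated Gly-X-Y triplets and wind in threes into a triple helix. The genes described here are all rows of the deposited count table whose symbol is Col, a number, a and a number, which gave 44 collagen chain genes of 24062 symbols. By the assembly their proteins form, 11 encode fibrillar chains, 9 FACIT chains that sit on the surface of fibrils, 6 chains of the type IV basement membrane network and 6 chains of type VI beaded filaments. A further 4 encode transmembrane collagens, 3 short chains that form hexagonal networks, 2 multiplexins, 1 the anchoring fibril chain and 2 (Col26a1 and Col28a1) other collagens.

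The series measured RNA in C57BL/6 mouse samples with altered Foxm1, a forkhead transcription factor best known for driving genes of G2 and mitosis. Embryonic fibroblasts of experiment 1 carried the labels KO and KO-NTD beside their WT controls. Those of experiment 2 were Het or Het-NTD, set beside WT and WT-NTD. Lungs taken whole from WT and Het animals 10 days of age formed the remaining pair, and each of the 9 groups had 3 libraries. The fibroblasts were primary cells of early passage that grew asynchronously to about 90% confluence. The labels do not explain NTD, do not say which stretch of Foxm1 was altered, and do not say whether each library came from its own embryo, culture or animal, so the spread behind every p-value is that of libraries and may be technical.

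A fibrillar collagen molecule is made as a procollagen, hydroxylated and folded in the endoplasmic reticulum, trimmed by proteinases outside the cell, and then packed into fibrils that lysyl oxidases cross-link. Type I collagen, the main fibril of connective tissue, joins chains of Col1a1 and Col1a2, while type III (Col3a1) and type V (Col5a1, Col5a2, Col5a3) are built into the same fibrils and type V helps to start them and to limit their width. Type IV chains never form fibrils but join at their ends into the sheet under epithelium and endothelium, and in lung its chains from Col4a3, Col4a4 and Col4a5 belong to the mature alveolar basement membrane. Fibroblasts are the main source of fibrillar collagen.

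Total counts ranged from 29730693 to 69517834 per library with a median of 42708114. The 10 fibroblast markers examined (among them Pdgfra, Thy1, Dcn and Vim) summed to 6670 to 8110 CPM in the fibroblast libraries and 1910 to 2170 CPM in lung. CPM are counts relative to a library size that TMM scaled within each experiment. Endothelial markers, at most 20.1 CPM in sum in the fibroblasts, reached 3490 to 4240 CPM in lung, and alveolar type 2 markers 19800 to 28700 CPM there. Foxm1 did not mark the libraries labelled KO: it was 139, 149 and 152 CPM in them and 134, 140 and 136 CPM in WT (log2 fold change 0.10 ± 0.06 SE, edgeR adjusted p = 0.565), so each direction below refers to the labels. Foxm1 was higher in all 3 NTD groups: 333 to 390 CPM in KO-NTD, 310 to 379 CPM in Het-NTD and 293 to 406 CPM in WT-NTD. In experiment 2 Foxm1 was 126 to 131 CPM in Het against 145 to 149 CPM in WT (edgeR adjusted p = 0.249). In lung, where Foxm1 was 17.2 to 20.4 CPM, Het and WT overlapped.

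Collagens took 4.24 to 6.13% of all counts in the fibroblast libraries and 1.47 to 2.27% in lung. Levels of different genes are compared here only per length: counts divided by the merged exon length of each gene, scaled so that all genes of a library have the same sum. On that scale the 11 fibrillar genes made up 73.5 to 81.0% of the summed collagen level in the 21 fibroblast libraries and 44.1 to 50.7% in the 6 lung libraries. The 6 basement membrane genes held 3.73 to 8.07% in fibroblasts and 28.7 to 37.0% in lung, without overlap. Beaded filament genes held 9.62 to 13.9% and 13.1 to 14.4%, and FACIT genes 2.71 to 5.28% and 2.13 to 2.80%, so these ranges met. Transmembrane collagens went from at most 0.0408% in fibroblasts to at least 1.82% in lung, while the short chain genes fell from at least 0.49% to at most 0.221%. The share per class in every library is shown in the stacked bars.

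**Figure D1:**
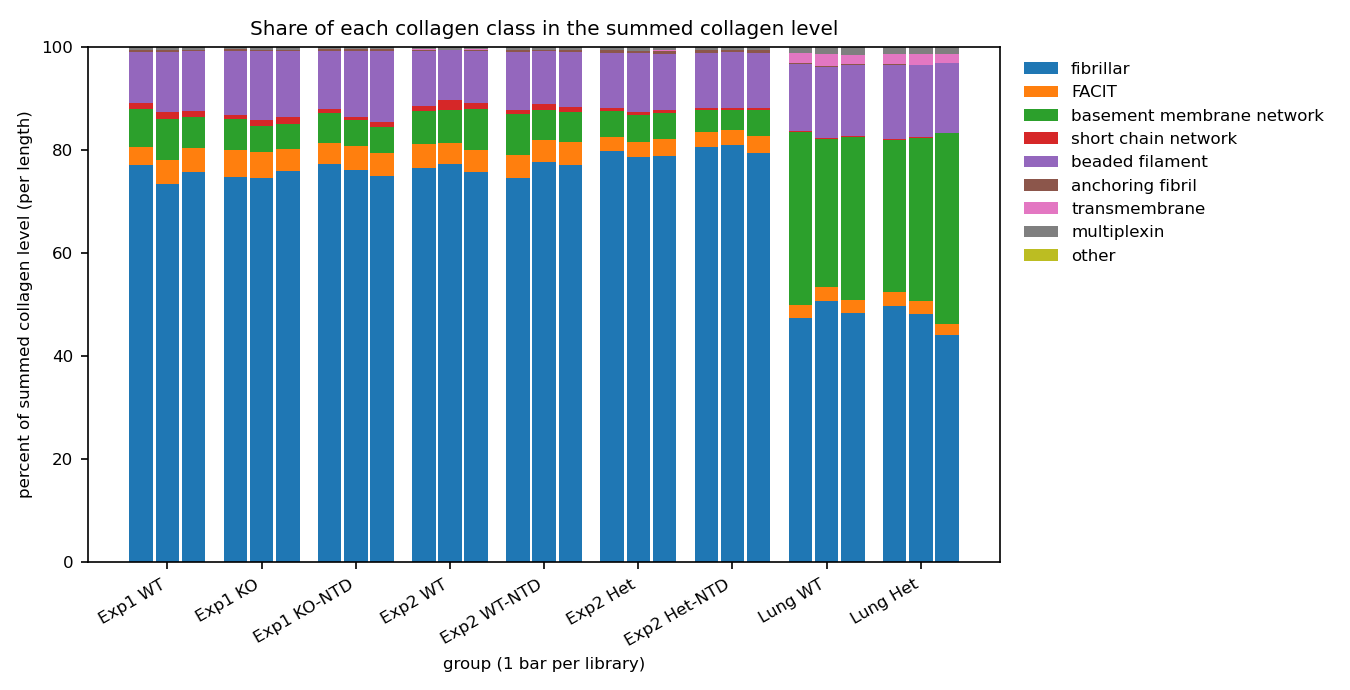
Share of each of the 9 collagen classes (percent of the summed level per exon length, vertical axis) in each of the 27 libraries (1 bar each, grouped by label). Fibrillar genes hold 73.5 to 81.0% in fibroblast libraries and 44.1 to 50.7% in lung, where the basement membrane share is 28.7 to 37.0%.

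The order of the single genes differed in the same way. In fibroblasts Col1a1 ranked first with a median level per length of 11000 (8310 to 12300 over 21 libraries), followed by Col1a2 at 3610, Col5a1 at 2030, Col3a1 at 1830 and Col6a1 at 1410, the last being a chain of the type VI beaded filaments. Next came Col5a2 at 1220 and Col6a3 at 898, then Col12a1, a FACIT chain of tendon and skin, at 811 and Col4a1 at 735. Col1a1, and then Col1a2 (2620 to 4180), lay above the ranges of all other collagens, whereas neighbours from Col5a1 (1440 to 2360) and Col3a1 (1080 to 2570) downwards overlapped. In lung Col3a1 ranked first with a median of 1380 (1100 to 1940 over 6 libraries), then Col4a1 at 1000, Col1a1 at 704, Col4a2 at 662 and Col1a2 at 616. The lung ranges of these 5 genes overlapped with those of their neighbours. With the longest transcript in place of the merged exons Col1a2 moved from the fifth to the second place in lung, because its merged exons (12426 bases) are much longer than its longest transcript (5348 bases).

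**Figure D2:**
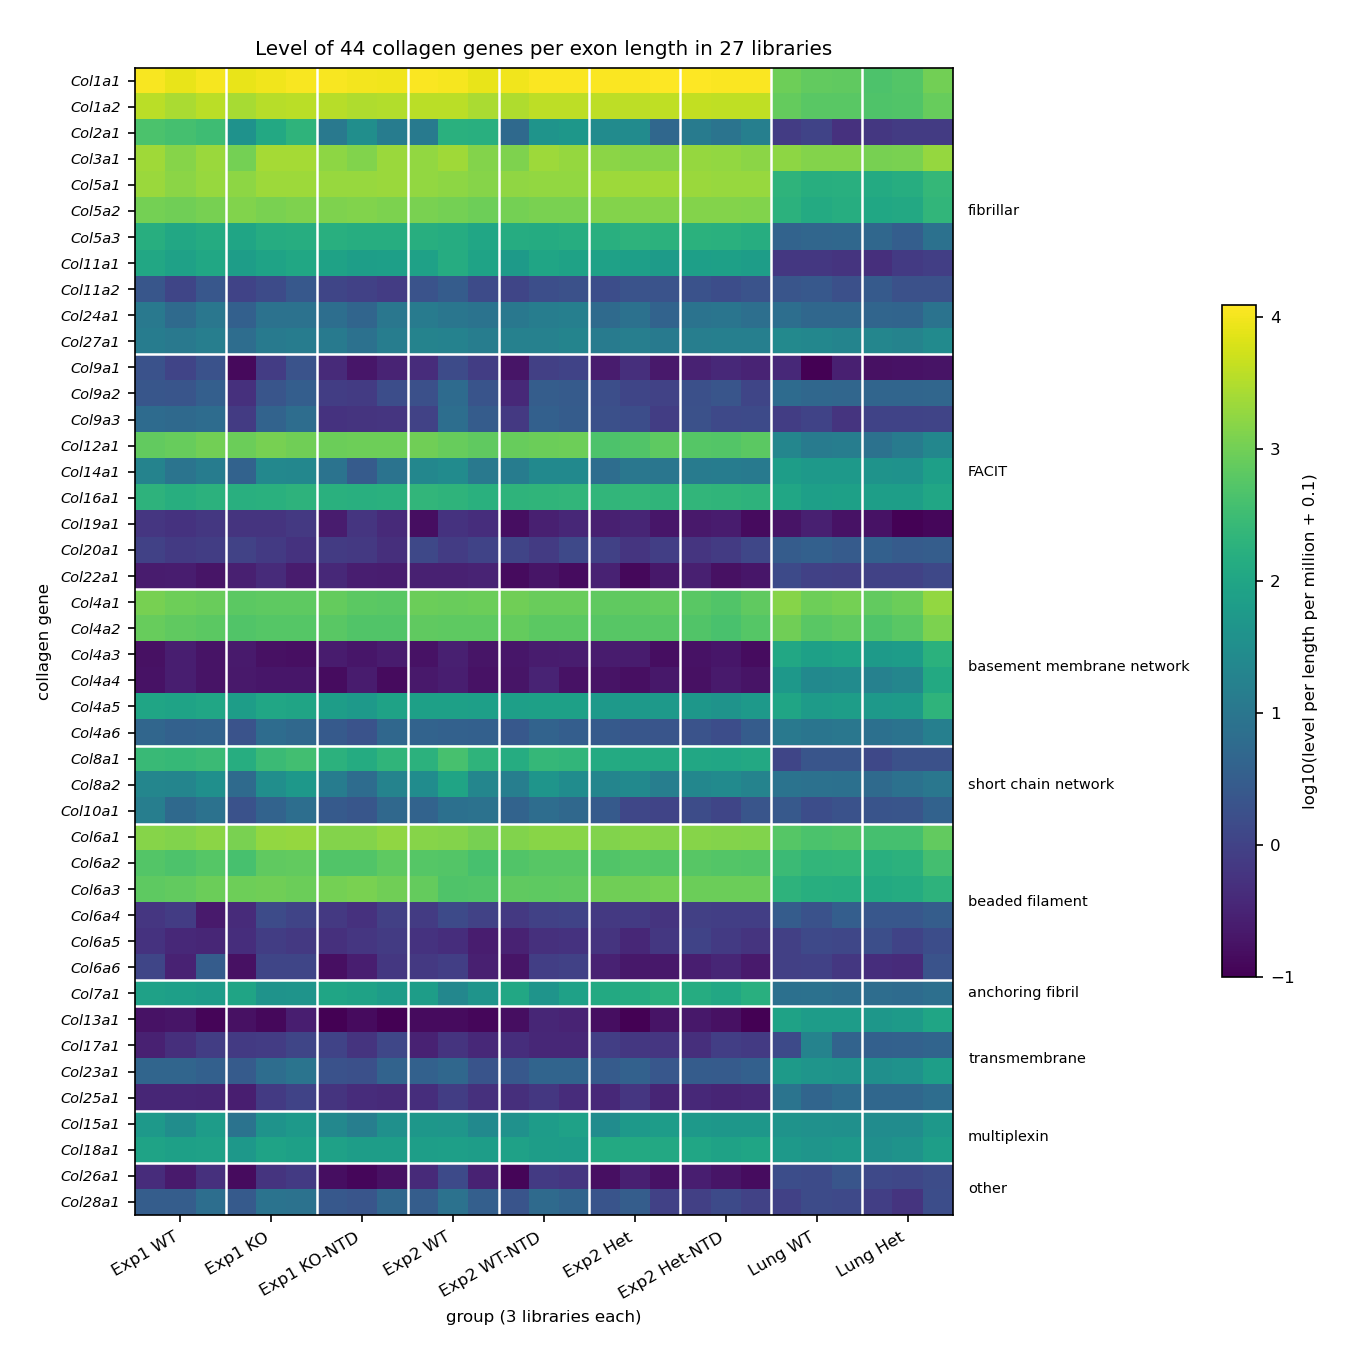
Level of each of the 44 collagen genes per exon length, on a log10 scale after adding 0.1 (colour), in 27 libraries (columns, grouped by label) with genes ordered by class (rows). Col1a1 is the brightest row in every fibroblast library, and Col4a3, Col4a4 and Col13a1 are near the floor in fibroblasts and bright in lung.

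At the other end, Col13a1, a transmembrane collagen, had at most 13 reads in any experiment 2 library and at most 10 in experiment 1, and it was left out of the fibroblast tests by the filter on low counts. Col9a1 and Col19a1, both FACIT chains, were left out of the lung test. The tests thus covered 43 of 44 collagens in each fibroblast experiment and 42 in lung.

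Several collagen genes sit in pairs, and the type IV genes do so head to head. On the mouse build GRCm38 (coordinates from GENCODE M21) Col4a1 (chr8:11198423-11312826, minus strand) and Col4a2 (chr8:11312805-11449287, plus strand) start 21 bases apart and their first exons overlap by 22 bases. Col4a4 and Col4a3 on chromosome 1 start 72 bases apart, and Col4a6 and Col4a5 on chromosome X start 1309 bases apart. Col3a1 and Col5a2 lie tail to tail on chromosome 1 with 24.6 kb between their ends, and Col6a2, Col6a1 and Col18a1 follow each other on the minus strand of chromosome 10. The library kit does not mark strand, so reads in the shared bases of Col4a1 and Col4a2 cannot be told apart. The same holds for 18 bases that Col10a1 shares with Nt5dc1.

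RefSeq promoter windows (GRCm38.p6, 250 bases before to 50 after a start) were matched by symbol for 35 of the 44 genes (not for Col1a1, Col2a1, Col5a2, Col4a3, Col9a3, Col12a1, Col14a1, Col22a1 and Col26a1), and 3 motifs were counted on both strands, namely the CCAAT box, whose letters are its name, the TATA box as TATAAA and the GC box as GGGCGG. Matches of the first and the last of these on opposite strands can share C letters. Of these 35 genes 3 (Col18a1, Col6a2 and Col9a1) have 2 windows, and only the first window of each gene was counted. A CCAAT match in the second window of Col9a1 is thus not in the counts. The GC box was present in 22 of the 35 collagen genes (62.9%) against 35.9% of 27025 genes with windows of the same length. The median share of G and C letters was 52.7% over the windows of all genes. In the collagen classes it ran from 56.3% (FACIT) to 63.85% (transmembrane), apart from 41.7% for the 1 window of the other collagens. The part of this share in the motif counts was not tested. The CCAAT box was in 12 of 35 (34.3%) against 37.9%, and the TATA box in 5 of 35 (14.3%) against 14.2%. The 2 windows of the Col4a1 and Col4a2 pair share 78 bases, and capitals mark the motifs. They are shown because both genes passed the test as lower in Het-NTD against WT-NTD, as given below. Both genes were also lower, without overlap and without passing the test, in KO, KO-NTD and Het against WT of the same experiment. Col4a1 is at chr8:11312777-11313076 (minus strand) and Col4a2 at chr8:11312555-11312854 (plus strand). 
Col4a1: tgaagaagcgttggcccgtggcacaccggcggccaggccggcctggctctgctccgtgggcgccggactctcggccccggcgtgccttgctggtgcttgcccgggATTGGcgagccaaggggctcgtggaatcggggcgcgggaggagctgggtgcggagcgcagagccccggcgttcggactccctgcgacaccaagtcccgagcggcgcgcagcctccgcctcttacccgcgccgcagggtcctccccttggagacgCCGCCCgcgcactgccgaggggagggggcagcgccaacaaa
Col4a2: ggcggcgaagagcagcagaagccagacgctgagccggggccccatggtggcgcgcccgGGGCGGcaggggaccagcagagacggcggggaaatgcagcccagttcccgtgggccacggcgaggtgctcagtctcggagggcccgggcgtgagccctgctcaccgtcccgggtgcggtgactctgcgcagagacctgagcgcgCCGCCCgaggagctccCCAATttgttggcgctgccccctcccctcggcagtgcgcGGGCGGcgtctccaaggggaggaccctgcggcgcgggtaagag

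The type V genes Col5a1 (chr2:27886175-27886474, plus strand) and Col5a3 (chr9:20815018-20815317, minus strand) are shown because they rose together in Het fibroblasts. Col18a1 (chr10:77166481-77166780, minus strand), a basement membrane proteoglycan, and Col4a5 (chrX:141475169-141475468, plus strand) are shown because they passed the test in both genotype comparisons, in opposite directions. Col10a1 also passed in both, lower, and its window (chr10:34389731-34390030, plus strand) is not shown. The Col10a1 window held 1 TATA box, 0 matches of the GC box and 0 of CCAAT, so it differs from the windows shown. The Col18a1 window is the first of its 2, and the other one (chr10:77113656-77113955, minus strand), not shown, held 0 matches of the GC box and 0 of CCAAT. Capitals mark matches of the same motifs.
Col5a1: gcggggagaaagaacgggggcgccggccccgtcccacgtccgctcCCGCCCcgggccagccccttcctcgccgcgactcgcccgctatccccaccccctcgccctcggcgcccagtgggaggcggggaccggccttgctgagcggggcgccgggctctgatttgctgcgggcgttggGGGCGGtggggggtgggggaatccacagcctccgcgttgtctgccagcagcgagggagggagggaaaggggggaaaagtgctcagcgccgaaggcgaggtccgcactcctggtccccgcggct
Col5a3: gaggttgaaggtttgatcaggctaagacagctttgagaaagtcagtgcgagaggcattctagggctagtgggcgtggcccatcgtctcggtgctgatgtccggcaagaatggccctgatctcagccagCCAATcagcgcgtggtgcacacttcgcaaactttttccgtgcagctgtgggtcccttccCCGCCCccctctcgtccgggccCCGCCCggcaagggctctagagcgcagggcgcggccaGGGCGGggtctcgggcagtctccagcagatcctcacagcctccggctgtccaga
Col18a1: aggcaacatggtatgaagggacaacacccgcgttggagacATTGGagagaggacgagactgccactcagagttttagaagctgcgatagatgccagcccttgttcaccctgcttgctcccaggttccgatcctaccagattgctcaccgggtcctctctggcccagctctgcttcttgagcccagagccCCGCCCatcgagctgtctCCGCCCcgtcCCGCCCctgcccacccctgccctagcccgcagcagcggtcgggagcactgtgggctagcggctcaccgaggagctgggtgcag
Col4a5: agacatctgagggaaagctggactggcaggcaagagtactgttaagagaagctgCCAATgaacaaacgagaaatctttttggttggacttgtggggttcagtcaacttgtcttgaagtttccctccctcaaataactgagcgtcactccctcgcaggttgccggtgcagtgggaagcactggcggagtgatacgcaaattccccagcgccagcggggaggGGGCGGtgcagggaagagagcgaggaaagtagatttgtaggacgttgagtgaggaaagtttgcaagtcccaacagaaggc

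Each of the 6 windows shown held at least 1 GC box, and Col5a1 was the only one of the 6 without CCAAT on either strand. None of the 6 held the TATA box letters. A match is a run of letters in the window and not a measured binding site.

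The comparison of Het with WT fibroblasts in experiment 2 asked which genes differ between libraries with these 2 genotype labels. In it 13 of 43 collagens passed the test, 6 higher and 7 lower, where 16.5% of all 14314 genes passed it (7.89% higher and 8.61% lower). The type V chains rose together, with Col6a3, Col7a1 and Col18a1, and the genes that fell were of other kinds: the short chain genes Col8a1 and Col10a1, the FACIT genes Col12a1 and Col14a1, the minor fibrillar genes Col24a1 and Col27a1, and Col4a5. The median log2 fold change over the 43 collagens was -0.40 against 0.01 over all genes, and 14 of 43 were above 0. Values of Het and WT did not overlap for 21 of the 43 collagens, against 33.9% of all genes.

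Type I and III chains, the bulk of the fibril, did not pass the test with all libraries. Col1a1 was 20280, 19600 and 21500 CPM in Het and 20010, 17840 and 14800 CPM in WT, with overlap (log2 fold change 0.22 ± 0.10 SE, edgeR adjusted p = 0.150). Without WT 1, Col1a1 was called higher (log2 fold change 0.32, edgeR adjusted p = 0.0306). Col1a2 was 12540, 12290 and 13370 CPM in Het and 11900, 11770 and 9171 CPM in WT, and its groups did not overlap (0.22 ± 0.11, edgeR adjusted p = 0.193). Col3a1 was 4171, 3839 and 3934 CPM in Het and 4799, 5897 and 3674 CPM in WT (-0.27 ± 0.21, edgeR adjusted p = 0.432). In Col3a1 the third WT library lay below all 3 Het libraries.

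All 3 genes of type V collagen, the fibril starter, rose. Col5a1 was 4969, 4868 and 5415 CPM in Het and 4202, 3688 and 3258 CPM in WT. Each Het library was above each WT library, and the fitted ratio was 1.37 (1.22 to 1.53 as 95% interval, edgeR adjusted p = 0.00241). Col5a2 was 3512, 3529 and 3560 CPM in Het and 3048, 2682 and 2382 CPM in WT, again without overlap, and its ratio was 1.31 (1.17 to 1.45, edgeR adjusted p = 0.00392). Col5a3, the least abundant of them, was 295.7, 355.2 and 345.9 CPM in Het and 275.8, 254.1 and 191.4 CPM in WT (log2 fold change 0.47 ± 0.13 SE, edgeR adjusted p = 0.0312). The Col5a1 and Col5a2 calls held when any 1 library was left out, and the Col5a3 call was lost without WT 2, Het 2 or Het 3 (edgeR adjusted p = 0.0654, 0.0965 and 0.106).

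Of the type VI beaded filament genes only Col6a3, whose long chain joins those of Col6a1 and Col6a2, passed the test. Col6a3 was 3043, 3046 and 3436 CPM in Het and 2483, 1550 and 1615 CPM in WT. The groups did not overlap, and Het stood at 1.69 times WT (1.34 to 2.13, edgeR adjusted p = 0.00913). Col6a1 was 1564, 1677 and 1651 CPM in Het and 1743, 1586 and 1324 CPM in WT, and Col6a2 1139, 1224 and 1195 against 1233, 1184 and 917.6 CPM. Both overlapped, with log2 fold changes of 0.07 ± 0.08 and 0.09 ± 0.10. Per exon length the ratio of Col6a3 to Col6a1 was 0.442 ± 0.0819 (SD, n = 3) in WT and 0.713 ± 0.0484 in Het, or 0.490 and 0.790 with the longest transcripts. The Col6a3 call was lost when only the WT and Het libraries were fitted (edgeR adjusted p = 0.0635).

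Col18a1 encodes a multiplexin of basement membranes whose end fragment is endostatin. It was 229.7, 224.7 and 224.8 CPM in Het and 135.8, 138.6 and 128.0 CPM in WT. This was the collagen with the lowest adjusted p in the comparison, with a ratio of 1.69 (1.48 to 1.92, edgeR adjusted p = 0.000296). Col7a1, the anchoring fibril of skin, was 338.4, 376.0 and 475.9 CPM in Het and 190.8, 61.37 and 119.4 CPM in WT. It had the highest ratio of the 6 genes that rose, 3.20, and the widest interval (1.56 to 6.58, edgeR adjusted p = 0.0381). Its call held without WT 1 and was lost in the other 5 fits that left out 1 library (edgeR adjusted p = 0.0672 to 0.116).

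Among the genes that fell, Col4a5 had the tightest values: 98.64, 101.0 and 101.6 CPM in Het and 141.5, 136.6 and 132.6 CPM in WT. The ratio was 0.733 (0.651 to 0.826, edgeR adjusted p = 0.00324), and the call held whichever library was left out. Its neighbours in the basement membrane class, Col4a1 (1384, 1378 and 1484 CPM in Het, 1786, 1642 and 1727 CPM in WT) and Col4a2 (1034, 1009 and 1071 against 1254, 1160 and 1190 CPM), did not overlap either. They did not pass the test, with log2 fold changes of -0.28 ± 0.10 and -0.21 ± 0.10 (edgeR adjusted p = 0.0825 and 0.158).

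Col10a1, the collagen of hypertrophic cartilage, was 2.225, 0.9004 and 0.8349 CPM in Het and 3.393, 6.085 and 6.768 CPM in WT. At 0.246 times WT (0.134 to 0.452, edgeR adjusted p = 0.00658) it had the lowest ratio of the genes called, and its call too held whichever library was left out. Col8a1, a short chain of vessel and eye matrix, was 265.3, 250.3 and 258.0 CPM in Het and 392.3, 812.3 and 429.9 CPM in WT. The second WT library was far above the others, and without it the log2 fold change of -1.08 ± 0.28 became -0.67 and was no longer called (edgeR adjusted p = 0.0606), nor was it without any 1 of the Het libraries (0.0791 to 0.0948). Col12a1 was 1932, 2032 and 2777 CPM in Het and 3915, 3192 and 2811 CPM in WT (-0.56 ± 0.15, edgeR adjusted p = 0.0333). Col14a1, another fibril surface chain, was 12.12, 18.98 and 18.67 against 42.64, 52.66 and 21.35 CPM (-1.23 ± 0.35). Col24a1 was 11.31, 15.93 and 8.321 CPM in Het and 26.25, 19.82 and 17.12 CPM in WT (-0.83 ± 0.24). Col27a1, with 44.82, 51.78 and 44.75 against 65.76, 61.32 and 49.14 CPM, was called although its groups overlapped (-0.32 ± 0.10, edgeR adjusted p = 0.0461).

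The other 30 collagens did not pass, among them all 3 tested transmembrane genes and 5 of 6 genes each of the basement membrane and beaded filament classes. Their log2 fold changes ran from -2.47 ± 0.97 for Col26a1, which was 0.142, 0.3752 and 0.167 CPM in Het and 0.6576, 2.696 and 0.455 CPM in WT, to 0.94 ± 0.36 for Col17a1. Col4a6 came closest to the threshold (-0.71 ± 0.23, edgeR adjusted p = 0.0514), with 5.632, 4.677 and 4.453 CPM in Het and 8.759, 7.78 and 7.678 CPM in WT. In the FACIT class Col9a1, Col9a2, Col9a3, Col19a1, Col20a1 and Col22a1 lay below 0 and Col16a1 above it.

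Whichever of the 6 libraries was left out, the call stood for 6 of the 13 genes (Col5a1, Col5a2, Col6a3, Col18a1, Col4a5 and Col10a1). The calls of Col12a1, Col14a1, Col24a1 and Col27a1 were lost in 4 or 5 of the 6 such fits, with edgeR adjusted p of up to 0.106, 0.142, 0.120 and 0.145. The count of genes that fell was the less stable one: it was 2 without WT 2 or without Het 1, 4 without Het 2 and 3 without Het 3, against 7 with all libraries. With no filter on low counts it was also 2, and only 3 genes rose when just the WT and Het libraries were fitted. That last fit called 5 of the 13 genes (Col5a1, Col5a2, Col18a1, Col4a5 and Col10a1) and in addition Col4a1, Col4a2 and Col4a6 as lower (edgeR adjusted p = 0.0182, 0.0338 and 0.0195).

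**Figure D3:**
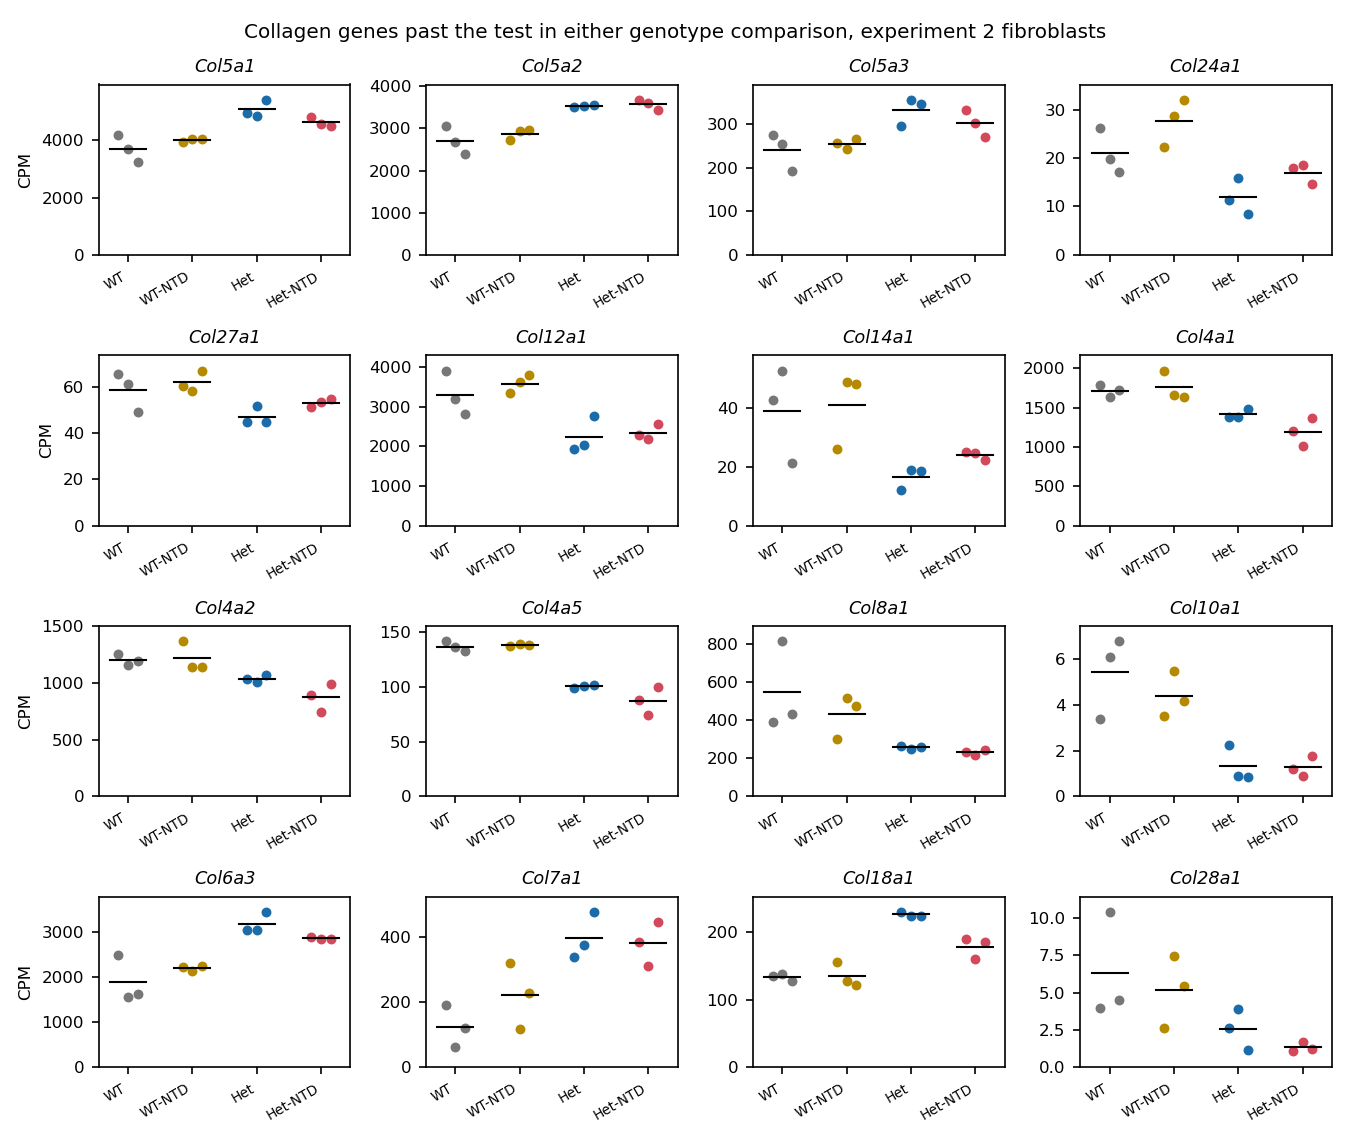
CPM (vertical axes, starting at 0) of the 16 collagen genes past the edgeR test in either genotype comparison of experiment 2, 1 point per library and a line at the mean of 3, for WT, WT-NTD, Het and Het-NTD. In the Col18a1 panel the Het points sit at 224.7 to 229.7 CPM and the WT points at 128.0 to 138.6 CPM, and in the Col8a1 panel 1 WT point stands at 812.3 CPM.

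Markers of other cells moved with this comparison. The 11 macrophage markers summed to 174, 158 and 193 CPM in WT and 65.1, 11.2 and 25.9 CPM in Het, and 9 of 11 were lower by the edgeR test. The 9 mesothelium markers summed to 84.2, 66.7 and 91.0 CPM in WT and 37.4, 31.1 and 30.6 CPM in Het, with 6 of 9 lower. The 8 chondrocyte markers did not separate the groups (43.0, 68.6 and 54.7 CPM in WT, 52.5, 48.6 and 39.7 CPM in Het), with Acan lower and Sox9 higher. The 10 osteoblast markers summed to 60.4, 64.3 and 64.3 CPM in WT and 77.1, 81.3 and 78.5 CPM in Het, and Runx2 among them was higher (log2 fold change 0.36 ± 0.06). Of the 10 fibroblast markers S100a4, Lum and Prrx1 were lower, and the sums overlapped (7040 to 7810 CPM in WT, 7230 to 7610 CPM in Het). Of 6 tested skeletal muscle markers Myh3 and Myh8, both under 2 CPM on average in either group, were higher, while the sum of that list was lower (27.6 to 30.1 CPM in Het, 33.3 to 47.3 CPM in WT). Of 8 smooth muscle markers Myh11 and Myocd were lower, and each of the other lists held at most 2 called genes. None of the macrophage or mesothelium markers was at 0 in all libraries of the experiment, and 1 chondrocyte marker was. The part of these cells in the collagen values was not tested, and in bulk RNA fewer cells of a type and less RNA per cell cannot be told apart.

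Genes that act on collagen chains were examined as lists beside the collagens. In chain modification and folding 5 of 19 tested genes were higher and 1 lower in Het than in WT. The prolyl 4-hydroxylase subunits P4ha1 (log2 fold change 0.28 ± 0.05 SE) and P4ha2 (0.69 ± 0.07) and the lysyl hydroxylase Plod1 (0.50 ± 0.08) rose, as did Glt25d1, a collagen galactosyltransferase. P4ha2 was 206, 201 and 216 CPM in Het and 144, 124 and 118 CPM in WT. Serpinh1, the collagen chaperone, was the 1 lower gene, with 3360, 3250 and 3470 CPM in Het and 4080, 3940 and 3590 CPM in WT.

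In secretion 4 of 10 genes were higher and none lower: Creb3l1, a membrane-bound transcription factor of procollagen secretion (0.61 ± 0.10), Mia3 and Ctage5, the cargo receptors at endoplasmic reticulum exit sites, and the coat gene Sec31a. Of 10 genes of propeptide cleavage and fibril assembly 2 were higher, the procollagen proteinases Bmp1 (0.83 ± 0.17) and Adamts14 (0.77 ± 0.10). Bmp1 was 505, 505 and 618 CPM in Het and 370, 254 and 289 CPM in WT. None of the 7 cross-linking genes passed the edgeR test, the lysyl oxidase gene Lox among them at 2310, 2190 and 2070 CPM in Het and 1910, 2380 and 1820 CPM in WT. Of 10 receptors Mrc2, the collagen uptake receptor, was higher, and Lair1 and Cd93 were lower. In breakdown and its inhibitors the gelatinase Mmp2 rose (0.52 ± 0.11) while the inhibitors Timp3 (-1.11 ± 0.24) and Reck (-0.99 ± 0.23) fell, and the other 9 of 12 tested genes did not pass. Median log2 fold changes of the 6 lists lay between -0.03 and 0.11, against 0.01 over all genes.

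Het-NTD was then compared with WT-NTD, which shares no library with the comparison above and was part of the same fit. Here 8 of 43 collagens passed the test, 2 higher and 6 lower, where 11.5% of all genes passed it (5.24% higher, 6.24% lower). Col5a2 and Col18a1 rose, and Col4a1, Col4a2, Col4a5, Col10a1, Col12a1 and Col28a1 fell. The median over the collagens was -0.38 against 0.00 over all genes, and 19 of 43 collagens did not overlap between groups, against 32.1% of all genes. Both lists held Col5a2, Col18a1, Col4a5, Col10a1 and Col12a1, each in the same direction, which is 38.5% of the 13 genes and 62.5% of the 8 genes. The same shares over all genes were not computed, so whether collagens differ from other genes in this cannot be told.

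The 3 abundant basement membrane genes were lower together in Het-NTD than in WT-NTD. Col4a1 was 1203, 1009 and 1367 CPM in Het-NTD and 1971, 1660 and 1642 CPM in WT-NTD, or 0.679 times WT-NTD (0.582 to 0.792, edgeR adjusted p = 0.00565). Col4a2, its head to head partner, was 891.9, 743.9 and 986.5 against 1365, 1143 and 1138 CPM (0.719, 0.622 to 0.831, edgeR adjusted p = 0.00966). Col4a5 was 88.17, 74.05 and 99.68 CPM in Het-NTD and 137.1, 139.3 and 138.1 CPM in WT-NTD (0.632, 0.561 to 0.712, edgeR adjusted p = 0.00035). In none of the 3 did the groups overlap, and all 3 calls stood whichever library was left out. Col4a6, next to Col4a5 on chromosome X, was 4.014, 3.109 and 6.088 against 5.271, 8.651 and 6.796 CPM and overlapped (log2 fold change -0.66 ± 0.23, edgeR adjusted p = 0.0893). The Col4a2 call was lost when only the compared libraries were fitted (edgeR adjusted p = 0.0580), as was the Col18a1 call described next, while Col5a1, Col6a3, Col24a1 and Col27a1 were called in that fit (edgeR adjusted p = 0.0117, 0.000376, 0.0226 and 0.0394).

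Col5a2 was 3674, 3603 and 3441 CPM in Het-NTD and 2715, 2949 and 2953 CPM in WT-NTD (log2 fold change 0.31 ± 0.07, edgeR adjusted p = 0.0143). Col18a1 was 190.0, 160.1 and 185.9 against 156.3, 127.8 and 122.1 CPM (0.40 ± 0.09, edgeR adjusted p = 0.0122). Neither gene overlapped between the groups, but both calls were lost without Het-NTD 1 (edgeR adjusted p = 0.0638 and 0.0596). Without Het-NTD 2 the Col5a2 call, and without WT-NTD 2 the Col18a1 call, was lost as well (edgeR adjusted p = 0.0550 and 0.0505). Col5a1 (0.20 ± 0.07, edgeR adjusted p = 0.105), Col5a3 (0.25 ± 0.13, 0.259) and Col6a3 (0.38 ± 0.15, 0.145) did not overlap either, and did not pass the test. Col6a3 was 2887, 2843 and 2838 CPM in Het-NTD and 2227, 2126 and 2239 CPM in WT-NTD.

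Col10a1 was 1.197, 0.8942 and 1.758 CPM in Het-NTD and 3.492, 5.457 and 4.175 CPM in WT-NTD (-1.78 ± 0.40, edgeR adjusted p = 0.0158). Col12a1 was 2290, 2192 and 2576 against 3342, 3619 and 3795 CPM (-0.61 ± 0.15, edgeR adjusted p = 0.0310). Col28a1, a von Willebrand domain collagen of nerve, was 1.103, 1.661 and 1.197 against 2.652, 7.485 and 5.455 CPM (-1.98 ± 0.54, edgeR adjusted p = 0.0424). All 3 separated the groups, but the Col12a1 call was lost in each of the 6 fits that left out 1 library (edgeR adjusted p = 0.0523 to 0.111). The Col28a1 call held only without WT-NTD 1, and the Col10a1 call was lost without Het-NTD 1, Het-NTD 2 or WT-NTD 2. The number of genes that rose was 0 without Het-NTD 1 and 1 without Het-NTD 2 or without WT-NTD 2, and 3 genes fell in each of these fits, against 9 without WT-NTD 1. Macrophage markers summed to 16.3, 11.6 and 16.7 CPM in Het-NTD and 156, 66.3 and 85.2 CPM in WT-NTD, with 10 of 11 lower. Mesothelium markers summed to 39.8, 32.3 and 49.9 CPM against 72.4, 78.3 and 63.1 CPM, with 4 of 9 lower and 1 higher. Osteoblast markers summed to 77.5, 76.6 and 76.7 CPM in Het-NTD and 65.7, 61.6 and 65.5 CPM in WT-NTD, with Runx2 higher again. Of 6 tested skeletal muscle markers Myh3, Myh8 and Actn2 were higher, with sums that overlapped (39.3 to 54.1 against 27.8 to 49.1 CPM). Each of the other lists held at most 3 called genes. The part of these lists in the collagen values was not tested.

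Of the genes that act on collagen, 6 of 19 in modification and folding were higher and 2 lower. P4ha2 (log2 fold change 0.78 ± 0.07), Plod1 (0.66 ± 0.08), P4ha1 (0.34 ± 0.05) and Plod2 (0.43 ± 0.08) led the list. Creb3l1 (0.49 ± 0.10) was the 1 of 10 secretion genes called, Bmp1 and Adamts14 rose, and Mmp2 (0.77 ± 0.11) rose while Timp3 and Reck fell. Lair1 was the 1 of 10 receptors called, lower. Tgm2, a transglutaminase, was the 1 of 7 cross-linking genes called, and it was higher (0.77 ± 0.19). Sparc, a collagen-binding protein of the matrix, was lower (-0.33 ± 0.09).

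**Figure D4:**
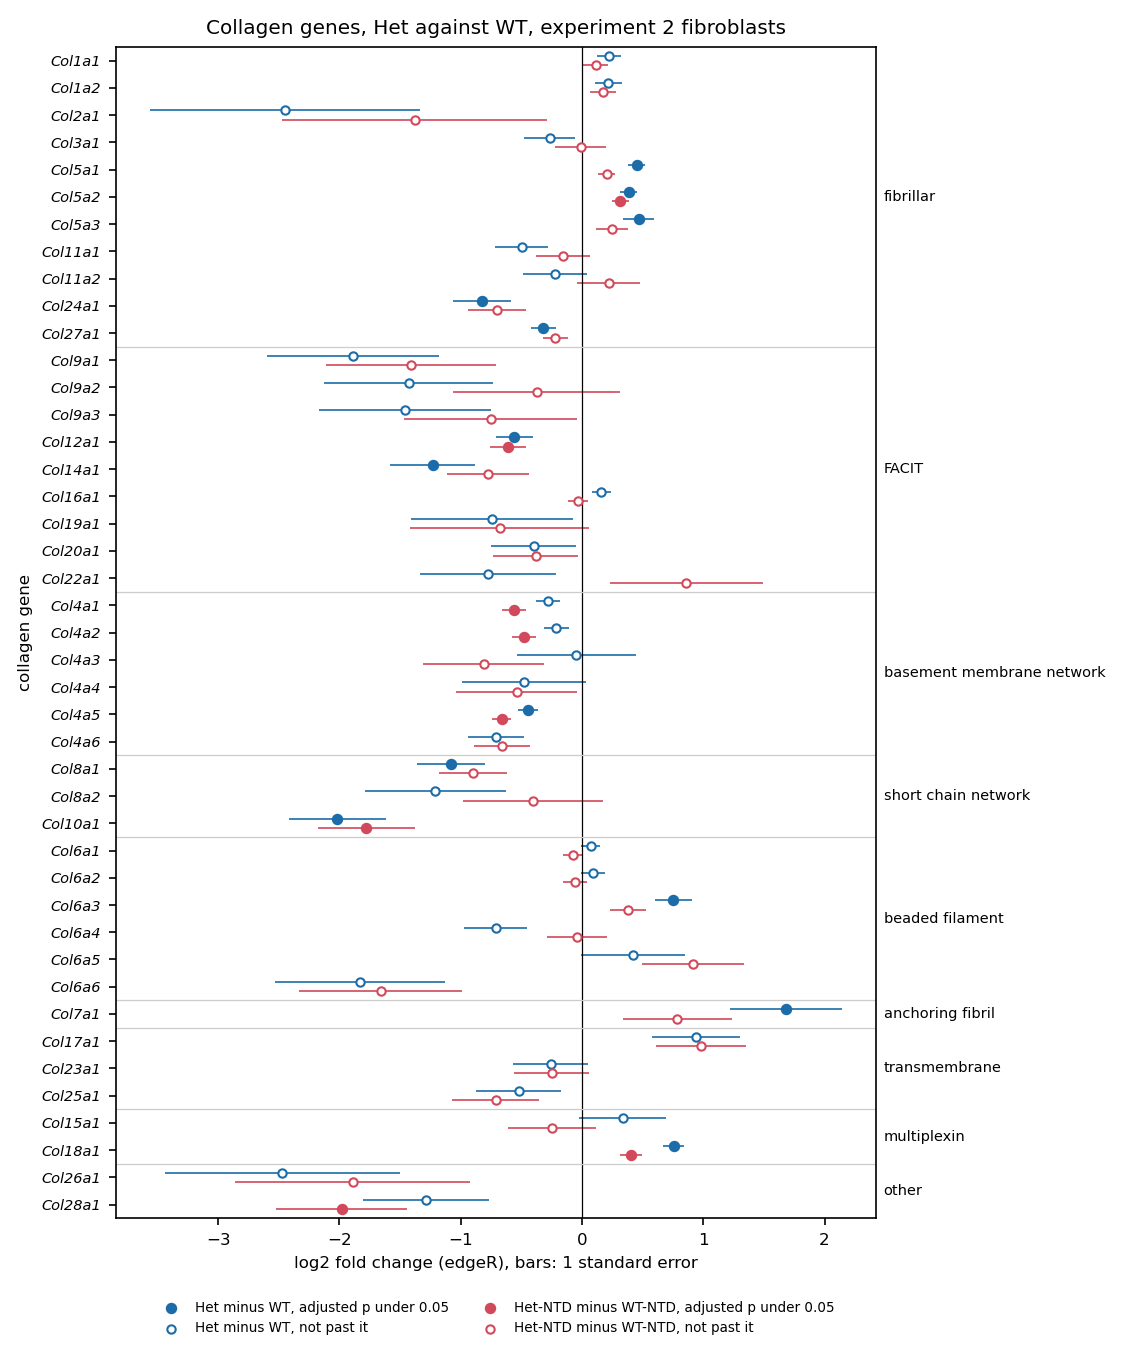
Log2 fold change with 1 standard error (horizontal axis, edgeR) of the 43 tested collagen genes by class for Het minus WT and for Het-NTD minus WT-NTD, 3 libraries per group; filled points have an adjusted p under 0.05. Col5a1, Col5a2 and Col5a3 lie right of 0 in both comparisons, and Col4a1, Col4a2, Col4a5, Col8a1, Col10a1 and Col12a1 lie left of 0 in both.

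The NTD libraries were also set against their own genotype, in comparisons that share the WT or Het libraries with the first one. None of 43 collagens passed the edgeR test for WT-NTD against WT (1 had an unadjusted p under 0.05, DESeq2 called 0, and 0.014% of all genes passed, 0.014% higher and 0% lower). Only Col22a1 did not overlap between those groups, where 9.33% of all genes did not. None passed for Het-NTD against Het either (4 with an unadjusted p under 0.05, DESeq2 0, and 0.014% of all genes passed, 0.00699% higher and 0.00699% lower), and 8 of 43 did not overlap, against 16.3% of all genes. Col18a1 had the lowest unadjusted p there (log2 fold change -0.34 ± 0.09, edgeR adjusted p = 0.584). Without WT 1, Col6a3 was called higher in WT-NTD than in WT (log2 fold change 0.47, edgeR adjusted p = 0.0045), against 0.22 ± 0.15 (edgeR adjusted p = 0.744) with all libraries. The test of whether the NTD change differed between Het and WT called none of 43 (2 with an unadjusted p under 0.05, Col18a1 and Col5a1, DESeq2 0, and 0% of all genes), and Col6a3 without WT 1 (-0.62, edgeR adjusted p = 0.0219).

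In experiment 1 the largest difference was in Col2a1, the fibrillar chain of cartilage. In WT it was 995.1, 882.7 and 724.6 CPM. The libraries labelled KO held 89.01, 260.3 and 452.6 CPM of it, and KO-NTD 25.93, 75.36 and 30.82 CPM. The 3 groups did not overlap. For KO-NTD against WT the ratio was 0.0507 (95% interval 0.0178 to 0.145, edgeR adjusted p = 0.0409), and Col2a1 was the 1 of 43 collagens past the test, lower, where 0.44% of all 14551 genes were called (0.0619% higher and 0.378% lower). This call was lost whichever of the 6 KO-NTD and WT libraries was left out (edgeR adjusted p = 0.0586 to 0.161). It was also lost with no filter on low counts (0.113) and with the replicate number as a block (0.0941). The call held in edgeR with another scaling (adjusted p = 0.0401) and with only the compared groups (0.0195). DESeq2 called 2 collagens higher and 4 lower, with Col2a1 among the lower ones (adjusted p = 4.41e-09). For KO against WT the log2 fold change of Col2a1 was -1.70 ± 0.59 (edgeR adjusted p = 0.306). Col2a1 also varied within experiment 2, where WT had 29.7, 406.9 and 395.0 CPM and WT-NTD 13.43, 108.2 and 121.7 CPM. There Het had 70.55, 68.88 and 12.36 CPM and Het-NTD 32.93, 22.4 and 38.31 CPM, and all groups overlapped.

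Several other cartilage collagens were also lower in KO-NTD than in WT in every library, without passing the test in the main fit. Col9a3, a FACIT chain that coats cartilage fibrils, was 5.541, 5.057 and 5.633 CPM in WT, 0.6287, 3.654 and 5.838 CPM in KO, and 0.431, 0.4497 and 0.4629 CPM in KO-NTD. For KO-NTD against WT its adjusted p was 0.101 (edgeR). Col9a3 was called lower there by DESeq2 (adjusted p = 1.08e-07) and by edgeR with only the compared groups (adjusted p = 0.000429). It shares 234 bases with Tcfl5, whose reads cannot be told apart in them. Col9a1 (2.262, 1.235 and 2.196 CPM in WT against 0.3793, 0.1285 and 0.267 CPM in KO-NTD) and Col11a2 (3.59, 1.803 and 3.783 against 1.776, 1.478 and 1.139 CPM) did not overlap either, with edgeR adjusted p of 0.339 and 0.347. With only the compared groups Col9a1 was called lower (edgeR adjusted p = 0.0455). Col11a1, another fibrillar chain of cartilage, overlapped, with levels per exon length of 71.7 to 86.3 in KO-NTD and 82.6 to 115 in WT. The 8 chondrocyte markers, which hold no collagen, summed to 102, 138 and 103 CPM in WT, 63.3, 86.9 and 109 CPM in KO and 57.7, 63.7 and 77.0 CPM in KO-NTD. The lower sum in KO-NTD was that of Acan, the cartilage proteoglycan aggrecan, which was 71.7 ± 22.6 CPM (SD, n = 3) in WT and 18.4 ± 6.13 CPM in KO-NTD (log2 fold change -1.97 ± 0.41, edgeR adjusted p = 0.140). The other 4 of 5 tested chondrocyte markers had log2 fold changes above 0, up to 0.51, and none of the 5 passed the edgeR test. The part of such cells in these values was not tested. Across the 43 collagens 17 did not overlap between KO-NTD and WT, 13 lower and 4 higher, against 21.4% of all genes, and the median log2 fold change was -0.38 against 0.00.

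For KO against WT none of 43 collagens passed the edgeR test (6 with an unadjusted p under 0.05, DESeq2 2 lower), where 0.447% of all genes passed it (0.124% higher and 0.323% lower). Groups did not overlap for 4 of 43 (17.3% of all genes): Col2a1, Col4a1 and Col4a2 lower and Col5a2 higher. Col4a1 was 1148, 1191 and 1211 CPM in KO and 1964, 1702 and 1510 CPM in WT (log2 fold change -0.54 ± 0.11, edgeR adjusted p = 0.101). Col4a2 was 814.9, 866.0 and 871.6 against 1271, 1134 and 1017 CPM (-0.42 ± 0.10, edgeR adjusted p = 0.153). Col5a2 was 3062, 2683 and 2852 against 2497, 2207 and 2581 CPM (0.24 ± 0.08, edgeR adjusted p = 0.272). Col6a3 was 2738, 2712 and 2516 CPM in KO, 1936, 2180 and 2520 CPM in WT, and 3039, 3388 and 2811 CPM in KO-NTD, where KO-NTD lay above WT in every library (0.48 ± 0.10, edgeR adjusted p = 0.141).

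The main fibril chains differed by less than their spread. Col1a1 was 17370, 13390 and 16620 CPM in WT, 13270, 15140 and 16990 CPM in KO, and 17850, 16210 and 15060 CPM in KO-NTD. Col1a2 was 10840, 8551 and 10720, then 7919, 10350 and 10980, then 10510, 9390 and 9346 CPM in the same order. Col3a1 was 5514, 3476 and 4882 CPM in WT, 2571, 5973 and 5790 CPM in KO and 4088, 3205 and 5009 CPM in KO-NTD. The first KO library was the lowest of its group in Col3a1, and it was lowest of all 9 libraries in Col15a1 (13.51 CPM) and Col8a2 (6.287 CPM). Its macrophage marker sum was 12 CPM against 360 and 244 CPM in the other KO libraries. Without this library Col25a1 was called higher for KO against WT (log2 fold change 1.63, edgeR adjusted p = 0.0431) and Col9a3 lower for KO-NTD against KO (-3.39, edgeR adjusted p = 0.00147), where no collagen was called in either with it; both genes are named because of these values.

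Col5a1 was 4295, 3222 and 4194 CPM in WT, 3437, 4367 and 4486 CPM in KO and 4255, 4192 and 4398 CPM in KO-NTD, with overlap. Col6a1 (1571, 1399 and 1683 CPM in WT, 1243, 1924 and 1992 CPM in KO, 1466, 1490 and 1852 CPM in KO-NTD) and Col6a2 overlapped as well. Between KO-NTD and KO, which share the KO libraries with the previous comparison, none of 43 passed the edgeR test (4 with an unadjusted p under 0.05, DESeq2 2 lower, 0.00687% of all genes passed). Groups did not overlap there for Col6a3, higher, and for Col2a1 and Col9a3, lower, which is 3 of 43 against 11.2% of all genes. Of the acting genes, Ddr1, a receptor kinase for collagen, was the only one called in experiment 1, lower in KO-NTD than in WT (-0.65 ± 0.09, edgeR adjusted p = 0.0139).

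In whole lung none of 42 collagens passed the edgeR test for Het against WT, none had an unadjusted p under 0.05, and DESeq2 called 0, where 0% of all 15933 genes passed. No collagen separated the groups, against 4.24% of all genes. The median log2 fold change was -0.01 over the collagens and 0.01 over all genes.

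Col1a1 was 1144, 1264 and 1869 CPM in Het lung and 1861, 1563 and 1486 CPM in WT, and the ratio was 0.871 (0.618 to 1.23 as 95% interval). Col3a1 was 4044, 4001 and 5256 against 4917, 4448 and 4490 CPM (0.960, 0.743 to 1.24). Col1a2 was 2230, 2274 and 2733 against 2925, 2517 and 2531 CPM (0.908, 0.717 to 1.15). The groups overlapped for all 3 genes, and the ratio of 1.17 fitted for Col1a1 in fibroblasts lay within its lung interval, so a change of that size was not detectable. For Col18a1 the lung ratio was 0.951 (0.720 to 1.26), for Col5a1 1.02 (0.770 to 1.34), for Col5a2 0.987 (0.718 to 1.36) and for Col6a3 0.937 (0.754 to 1.16). For Col18a1 and Col6a3 these intervals lay below the fibroblast intervals of 1.48 to 1.92 and 1.34 to 2.13, and for Col5a1 and Col5a2 they overlapped with those in fibroblasts.

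The third Het library stood apart in the type IV genes. Col4a4 was 369.6 CPM in it, against 69.09 and 80.35 CPM in the other Het lungs and 161.2, 89.27 and 98.11 CPM in WT. Col4a3, its head to head partner, was 497.8 CPM there, against 218.2 and 226.6 CPM in Het and 344.9, 259.6 and 297.1 CPM in WT. Col4a5 was 378.5 CPM there and at most 193.8 CPM elsewhere in lung, and Col4a1 was 3792 CPM there, 2090 and 2352 CPM in the other Het lungs, and 3264, 2290 and 2661 CPM in WT. Col4a2 was 2240 CPM there, 1208 and 1422 CPM in the other Het lungs and 1949, 1334 and 1553 CPM in WT, so the type IV genes were all highest in that library. Without it the count of collagens called for Het against WT in lung stayed 0, while the comparison with the fibroblast Het effect changed, as given below. In the second WT library Col17a1, a hemidesmosome collagen of epithelium, was 37.1 CPM against 2.272 to 8.124 CPM elsewhere, and epithelial keratins and adhesion genes summed to 991 CPM against 401 to 584 CPM.

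The type V and VI chains were lower in lung than in fibroblasts and did not separate the genotypes. Col5a1 was 414.1, 439.3 and 588.0 CPM in Het lung and 532.7, 440.6 and 445.6 CPM in WT, Col5a2 was 390.2, 410.4 and 591.6 against 536.7, 409.1 and 465.0 CPM, and Col6a1 was 625.8, 618.2 and 879.5 against 749.0, 650.7 and 688.0 CPM. Col6a2 was 510.7, 556.2 and 859.5 against 721.1, 619.7 and 631.3 CPM, and Col6a3 546.2, 571.2 and 652.7 against 698.2, 601.5 and 589.0 CPM. In each of these genes the third Het library was the highest of its group.

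The difference of the Het effect between lung and fibroblasts was fitted over 12 libraries of both. None of 44 collagens passed the edgeR test (12 with an unadjusted p under 0.05), where 1.12% of all genes did (0.813% higher and 0.312% lower), and DESeq2 called 1 higher (Col10a1) and 3 lower (Col6a3, Col7a1 and Col18a1). Col10a1 had a difference of 2.50 ± 0.57 on the log2 scale (edgeR adjusted p = 0.0596), Col18a1 of -0.82 ± 0.19 (0.0616), Col7a1 of -1.80 ± 0.43 (0.0727) and Col6a3 of -0.84 ± 0.24 (0.133). Without the first WT fibroblast library 1 gene was called higher (Col10a1) and 2 lower (Col6a3 and Col7a1). Without the third Het lung library Col18a1 was called lower (-1.03, edgeR adjusted p = 0.00164). Col10a1 was called higher without the first Het fibroblast library (3.12, edgeR adjusted p = 0.0103). Col7a1 was called lower without the second WT fibroblast library (-1.48, edgeR adjusted p = 0.043).

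The tissues themselves differed in most collagens, as in most genes. In the same fit 36 of 44 collagens differed between WT lung and WT fibroblasts of experiment 2, 14 higher and 22 lower in lung, where 75.6% of all genes did (41.5% higher and 34.1% lower). Values did not overlap for 35 of 44, against 82.1% of all genes. Tissue, culture and experiment cannot be told apart here. By class, 9 of 11 fibrillar genes were lower and 1 higher in lung, all 3 short chain genes were lower, all 4 transmembrane genes were higher, and 3 of 6 basement membrane genes were higher and none lower.

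Col1a1 was 1450 ± 174 CPM (SD, n = 3) in lung and 19800 ± 2980 CPM in fibroblasts of this fit (log2 fold change -3.77 ± 0.20 SE, edgeR adjusted p = 1.67e-08). Col3a1 was 4100 ± 227 and 5410 ± 1240 CPM (-0.40 ± 0.16, edgeR adjusted p = 0.0424) with overlap, which is 0.758 times the fibroblast level where Col1a1 was at 0.0732 times. Col11a1, a fibrillar chain of cartilage, was 1.76 to 2.17 CPM in lung and 319 to 520 CPM in fibroblasts. Col8a1 was 2.19 to 4.83 against 445 to 913 CPM, and Col12a1 70.7 ± 15.9 against 3740 ± 643 CPM. In all 3 genes the tissues were far apart.

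Higher in lung were Col4a3 (230 to 306 CPM against 0.239 to 0.52 CPM, edgeR adjusted p = 7.9e-09) and Col4a4 (79.1 to 143 against 0.257 to 0.52 CPM, 2.38e-06), the head to head pair. Col4a1 (2430 ± 435 against 1940 ± 90.6 CPM) and Col4a2 (1430 ± 276 against 1360 ± 59.9 CPM) did not pass the test. Col13a1, with 1 or 2 reads in each WT fibroblast library, was 89.0 to 104 CPM in lung. Col23a1, another transmembrane collagen, was 70.4 to 90.6 against 3.41 to 8.43 CPM, and Col25a1 16.8 to 30.7 against 1.46 to 2.86 CPM. Col14a1 was 118 ± 8.70 against 43.9 ± 17.9 CPM.

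Ratios between chains were taken per exon length. Col1a1 to Col1a2 was 2.98 ± 0.0497 (SD, n = 3) in experiment 1 WT and 3.04 ± 0.158 in experiment 2 WT fibroblasts, and 1.16 ± 0.0475 in WT lung. With the longest transcripts as lengths these ratios were 1.42, 1.45 and 0.554, so the ratio itself depends on the length used while the order of the tissues does not. Col3a1 to Col1a1 was 0.182 ± 0.0335 in experiment 2 WT and 1.9 ± 0.127 in WT lung, or 0.291 and 3.02 with the longest transcripts. Col4a1 to Col4a2 was 1.27 ± 0.0168 in experiment 2 WT, 1.21 ± 0.0208 in Het and 1.51 ± 0.0207 in WT lung, or 1.39, 1.33 and 1.66. The Col4a1 to Col4a2 ratio was 1.34 ± 0.0275 in experiment 1 WT and 1.23 ± 0.0148 in KO, and all ratios of this pair lay between 1.19 and 1.53 over the 27 libraries.

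**Figure D5:**
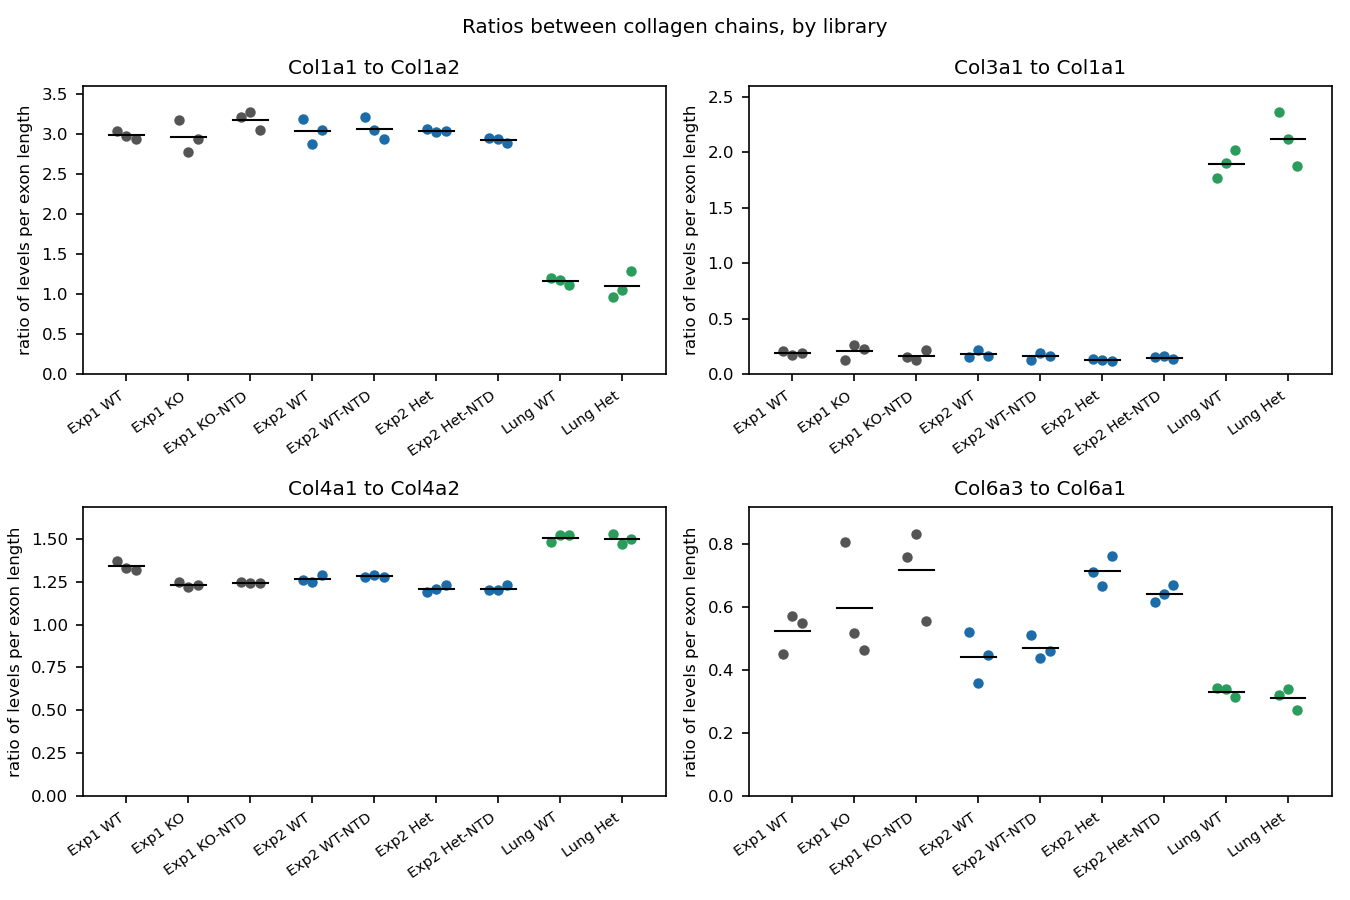
Ratio of the levels per merged exon length (vertical axes, starting at 0) for 4 pairs of collagen chains in 27 libraries (points, 3 per group, line at the mean). Col1a1 to Col1a2 is near 3.0 in fibroblasts and 1.16 in WT lung, and Col6a3 to Col6a1 is 0.442 in WT and 0.713 in Het fibroblasts of experiment 2.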

How the data were processed

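RNA was measured in 27 libraries of 9 groups, 3 each. The authors deposited raw read counts per gene. Per the submitters' processing notes, the tools were TopHat2 2.0.14, Bowtie2 2.2.6 and featureCounts 1.4.6 on the build mm10, and per the labels' protocols the kit was a TruSeq RNA v2 kit, so strand was not kept. Totals were 29730693 to 69517834 counts per library. Replicates all differed by more than sampling noise (chi-square per degree of freedom of 5.88 or more). Even numbers made up 65.8% of the counts from 1 to 20, so some read pairs may count as 2 reads.

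Each experiment was fitted by itself with all its groups in edgeR 4.0.16 (R 4.3.3): filterByExpr by group, TMM scaling, robust quasi-likelihood test, and Benjamini-Hochberg adjustment over all genes at 0.05. The common biological coefficients of variation were 0.204 and 0.114 for the fibroblast experiments and 0.255 for lung. Lung was set against fibroblasts in 1 fit of WT and Het libraries of lung and experiment 2. Intervals are 95% intervals of the fitted ratio. DESeq2 1.42.0, another scaling, no filter, only the compared groups, a replicate block and leaving out each library were the alternatives. The code was tested on simulated counts.

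Values per library are given for Col1a1, Col1a2, Col3a1, Col5a1, Col5a2, Col4a1, Col4a2, Col6a1, Col6a2 and Col6a3, and for the 15 called collagens with the lowest p. Col14a1 and Col27a1 fell outside those 15 and, with the other collagens named, were chosen after their values were seen, as was Serpinh1 (up to 4 members per list of collagen-acting genes are otherwise named by p). The members and lists were chosen with earlier results of these data known.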

Additional observations from a re-analysis of the deposited data

Results flagged for a closer look

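Col6a3, the long chain of type VI collagen, had differences of opposite sign in 2 of the 3 comparisons of an NTD group with its own genotype. It was higher in KO-NTD than in KO (log2 fold change 0.21, 3039, 3388 and 2811 against 2738, 2712 and 2516 CPM) and lower in Het-NTD than in Het (-0.15, 2887, 2843 and 2838 against 3043, 3046 and 3436 CPM). Col6a3 was flagged by a rule that asked for opposite signs and no overlap in both of these, so the separation is no added support. Groups did not overlap for 11.2% of all genes between KO-NTD and KO, and for 16.3% between Het-NTD and Het. Neither difference in Col6a3 passed the edgeR test. In the third, WT-NTD against WT, the difference was 0.22 with overlapping groups (2227, 2126 and 2239 against 2483, 1550 and 1615 CPM), and without WT 1 it was 0.47 (edgeR adjusted p = 0.0045). The KO-NTD and Het-NTD comparisons come from separate experiments, and the difference between them was not tested.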

How the results depend on the processing

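Counts of called collagens depended on the setting, in comparisons with few calls and in those with more. No collagen called in the main fits within fibroblasts changed sign in another setting, and the signs of the other collagens were not checked. DESeq2 called 2 lower for KO against WT, 2 lower for KO-NTD against KO, 2 higher and 4 lower for KO-NTD against WT, 13 lower for Het against WT, and 1 higher and 3 lower for the Het effect in lung minus fibroblasts. With no filter on low counts the lower calls were 0 for KO-NTD against WT and 2 for Het against WT. With only the groups compared in the fit, KO-NTD against WT had 3 lower and Het against WT 3 higher. Leaving out 1 library gave 0 to 1 higher for KO against WT (1 without KO 1), 0 to 1 lower for KO-NTD against KO (1 without KO 1), 0 lower for KO-NTD against WT, and 0 to 1 higher for WT-NTD against WT (1 without WT 1). For Het against WT it gave 4 to 8 higher (the most without WT 1), and 2 to 7 lower (2 without WT 2 or Het 1, 3 without Het 3 and 4 without Het 2). For Het-NTD against WT-NTD it gave 0 to 2 higher and 3 to 9 lower (the fewest without Het-NTD 1). The NTD change by genotype gave 0 to 1 lower (1 without WT 1), and the Het effect in lung minus fibroblasts 0 to 1 higher and 0 to 2 lower (the most without experiment 2 WT 1, where also Het 1 gave 1 higher). In this last comparison Col18a1 was lower without lung Het 3, and Col7a1 was lower without experiment 2 WT 2. The causes were not tested.

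Replicate numbers did not pair the libraries: libraries with the same number in 2 groups had correlated deviations above 0.1 in 5 of 9 pairs in experiment 1, 6 of 18 in experiment 2 and 1 of 3 in lung, and 12 of 30 matched their own number best. With the replicate number as a block KO-NTD against WT had 0 lower calls, Het against WT had 6 higher and 8 lower (without Col14a1 and Col27a1, and with Col9a1, Col28a1 and Col4a1 added, edgeR adjusted p = 0.0373, 0.0263 and 0.0499), and Het-NTD against WT-NTD had the same 2 higher and 6 lower genes.

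With 3 libraries per group, changes smaller than the fitted intervals cannot be seen, most of all in lung, and genes with few reads, such as Col9a1 and Col26a1, have wide errors.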
